A study of Mus musculus with 61 samples.

Results

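Brain endothelial genes were followed across the whole adult mouse brain. The members were 8 genes that mark the cells lining brain vessels, namely Cldn5, Pecam1, Slco1c1, Flt1, Kdr, Tek, Abcb1a and Slc2a1. Each was matched by its symbol through the RefSeq accession of its probes, and the probe with the highest mean intensity stood for the gene, so that 8 genes with 9 probes were taken from an array of 41174 non-control probes. Flt1 was the member with 2 probes. In GRCm38.p6 the genes lie at chr16:18776847-18778262 (Cldn5), chr11:106654213-106715281 (Pecam1), chr6:141524354-141570177 (Slco1c1), chr5:147561604-147726438 (Flt1), chr5:75932827-75979072 (Kdr), chr4:94739086-94874976 (Tek), chr5:8567091-8748575 (Abcb1a) and chr4:119108745-119137330 (Slc2a1). The chosen probe of every member was well above background in all 61 fractions.

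The study cut 6 whole brains of 8-week-old male C57BL/6J mice into serial fractions 1 mm wide, each made of consecutive thin cryosections. The mice had been perfused with RNAlater, and the brains were embedded and then frozen before cutting. No mouse carried a transgene or had a treatment, so the groups are positions within a normal brain and brains cut at different angles. The S, C and H series (9 sagittal, 13 coronal and 6 horizontal fractions, 1 mouse each) lay in the orthogonal planes, and the So, Co and Ho series (10, 16 and 7 fractions, 1 mouse each) were cut slightly oblique to them. RNA of each fraction was hybridized to its own single-dye array, and the study's replicate table joins fractions of similar position from the orthogonal and the oblique brain of a plane into 28 pairs, named c1 to c13 from posterior to anterior, h1 to h6 from dorsal to ventral and s1 to s9 from left to right.

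Endothelial cells of brain vessels form the blood-brain barrier. Tight junctions sealed by claudins close the gaps between the cells, transporters carry glucose and hormones inward, and efflux pumps return lipophilic compounds to the blood. Their growth and upkeep depend on vascular endothelial growth factor (VEGF) and angiopoietin receptors on their surface and on Wnt signals from the surrounding tissue.

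All levels are log2 intensities after subtraction of the 75th percentile of the same array, so that 0 is that percentile and a step of 1 is a doubling. Levels of different genes are not compared with each other, because probes differ in how brightly they hybridize. Fractions are bulk tissue, and fewer endothelial cells cannot be told apart from less RNA per cell. Between 57.9% and 73.1% of the probes were well above background per array, and the signal at the 75th percentile lay between 739.7 and 1971 intensity units. Hindbrain genes such as Hoxb3 and Pcp2 peaked in low-numbered coronal fractions and the olfactory bulb genes Doc2g and Eomes in the high-numbered ones, as the posterior to anterior numbering requires.

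The upstream sequences of Cldn5, Abcb1a and Slc2a1 are given because these 3 members varied over the pairs. They are the 250 bases before the annotated start of the gene in RefSeq (GRCm38.p6), read 5′ to 3′ on the plus strand, on which the 3 genes lie. Capitals mark AGGAAG, the core of the site bound by ETS factors, which are central to endothelial gene expression, and GGGCGG, the GC box bound by Sp1, each searched on both strands.
Cldn5, chr16:18776597-18776846, plus strand: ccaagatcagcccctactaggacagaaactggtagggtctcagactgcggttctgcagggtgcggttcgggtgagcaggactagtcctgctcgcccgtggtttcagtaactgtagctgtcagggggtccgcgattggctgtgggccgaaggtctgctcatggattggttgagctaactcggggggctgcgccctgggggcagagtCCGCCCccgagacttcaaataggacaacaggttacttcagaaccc
Abcb1a, chr5:8566841-8567090, plus strand: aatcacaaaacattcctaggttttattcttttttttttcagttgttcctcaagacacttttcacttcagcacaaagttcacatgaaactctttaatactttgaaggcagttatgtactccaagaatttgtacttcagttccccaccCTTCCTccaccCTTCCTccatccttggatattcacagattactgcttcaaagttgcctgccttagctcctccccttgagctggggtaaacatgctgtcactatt
Slc2a1, chr4:119108495-119108744, plus strand: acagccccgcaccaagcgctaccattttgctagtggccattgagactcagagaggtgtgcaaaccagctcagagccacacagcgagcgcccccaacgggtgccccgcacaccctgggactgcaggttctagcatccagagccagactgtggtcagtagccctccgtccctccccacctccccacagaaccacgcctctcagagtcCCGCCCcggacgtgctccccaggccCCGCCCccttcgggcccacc
Abcb1a held 2 matches to AGGAAG and Cldn5 and Slc2a1 held 0, against 29.5% of 32851 promoters of the same length with at least 1. Sequences of Slco1c1, Flt1, Kdr and Tek were searched too; the RefSeq start used for Flt1, Kdr and Tek lies inside the gene interval given above, so that their windows lie at least partly within it. Flt1 held 2 matches, Slco1c1 held 1, and Kdr and Tek held 0. GGGCGG was present 3 times in Flt1, 2 times each in Kdr and Slc2a1 and 1 time in Cldn5, against 32.7% of the promoters with at least 1 match. AGATAA, to which factors of another endothelial family bind, was found in 0 of these sequences and in 9.99% of all promoters, and TATAAA was found 1 time, in Flt1, and in 12.4% of all.

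Seen across all 61 fractions, most members had a smaller span than the median detected probe. The span between the lowest and the highest fraction was 2.95 for Cldn5, a 7.74-fold range, and between 0.91 (Flt1) and 1.37 (Abcb1a) for the 7 other members. The median span of the 36573 probes detected on at least 1 array was 2.13, and 64.7% of them had a smaller span than Cldn5, but 28.9% or fewer had a smaller span than any other member. The members other than Cldn5 thus had smaller spans than most of these probes. Of the 36573 probes, 22323 were well above background on all arrays, as the members were, and spans among those alone were not compared. Abcb1a and Slc2a1, though of small span, varied over the pairs in the test given below.

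Cldn5 encodes claudin-5, the main tight junction protein of the barrier. Its level in the S series was 2.45 at the lowest (S5), 3.44 at the median and 3.57 at the highest (S1). In the So series it was 3.13, 3.24 and 4.02, with the highest value in So1. In the C series it was 3.23, 3.51 and 4.81, and in the Co series 3.33, 3.65 and 5.40. Both coronal series had their highest value at the anterior end, in C13 and Co16, and the 3 fractions at that end did not overlap with the rest of the coronal fractions. In the horizontal plane the values were narrow, at 3.19, 3.38 and 3.51 in H and 3.28, 3.42 and 3.81 in Ho.

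At the anterior end, C13 had a Cldn5 level of 4.81 and its partner Co15 had 4.93, whereas the other 12 C fractions lay between 3.23 and 3.71 and the 14 remaining Co fractions between 3.33 and 3.98. The unpaired Co16 had 5.40. The subtracted 75th percentile signal was the lowest of its series in C13 (923.6) and low in Co16 (1444). In Co15 it was 1688, within the range of the series, and its part in these levels was not tested. C13 was 1.40 above the mean of c5 to c11 in its own brain (2.64-fold), and Co15 was 1.46 above it (2.75-fold). C13 was the one C array on its slide and was scanned on another day than C1 to C12, so in that brain position, slide and day cannot be told apart at this end; Co15 shared the scan day of its whole series and the slide of Co13 to Co16. Ordered by mean level, pair c13 (4.87 ± 0.08, SD, n = 2) stood first and c12 (3.85 ± 0.19, SD, n = 2) second, a gap of 1.02 against a standard error of 0.19 for the difference of 2 pair means. None of the other 26 gaps between neighbors in that order was larger than 0.18. Sorting makes gaps between neighbors small, so they do not show that the other pairs were alike.

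The lowest Cldn5 levels were those of single fractions in 1 brain. S5 at the midline had 2.45, S8 had 2.80 and S9 had 3.02, whereas the partners of S5 and S8 in the oblique brain, So6 and So9, had 3.28 and 3.24. S5 also held the lowest Flt1 (3.39) and Tek (−1.83) levels of its brain, against medians of 3.49 and −1.66 there, whereas the median of Cldn5 was 3.44.

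**Figure D1:**
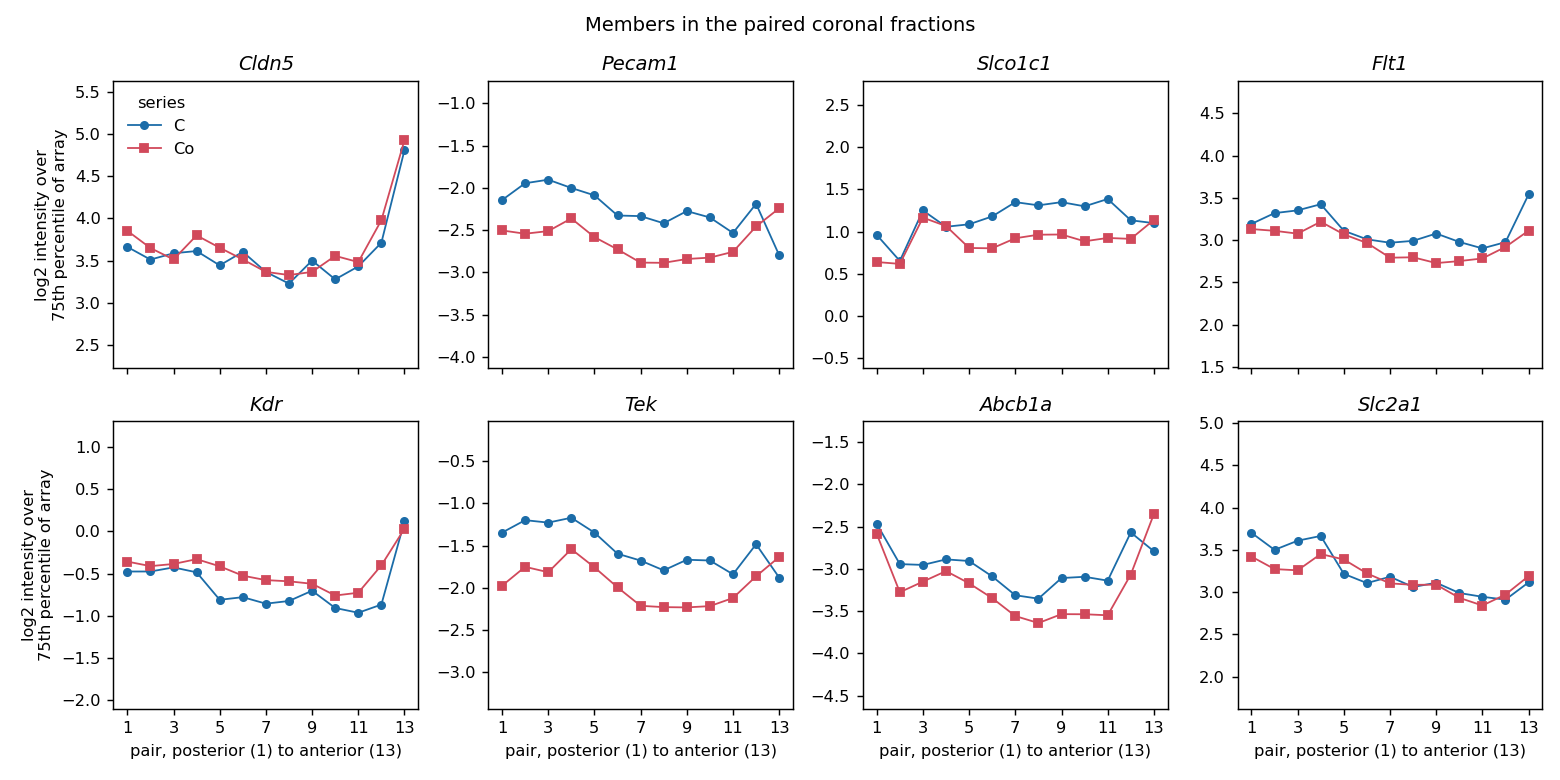
Log2 intensity relative to the 75th percentile of each array (vertical axis, the same height in log2 units in every panel) against the pair number from posterior to anterior (horizontal axis) for the paired fractions of the C and Co brains, 1 point per fraction. Cldn5 climbed from 3.71 and 3.98 in pair c12 to 4.81 and 4.93 in pair c13, and Slc2a1 was higher on average in c1 to c4 than in c5 to c11 in both brains.

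Abcb1a encodes P-glycoprotein, the main efflux pump of the barrier in rodents. Its level was −3.35 at the lowest, −2.95 at the median and −2.47 at the highest in the C series, and −3.64, −3.22 and −2.27 in the Co series. Both ends of the coronal axis were high and the middle was low: pair c1 had −2.53 ± 0.08 (SD, n = 2), c8 had −3.50 ± 0.20 and c13 had −2.57 ± 0.31. In the S series the values were −3.14, −2.99 and −2.84, in So −3.34, −3.07 and −2.81, in H −3.46, −3.37 and −3.21, and in Ho −3.47, −3.36 and −3.15. The sagittal and horizontal brains thus covered a narrower range than the coronal ones.

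Slc2a1 encodes GLUT1, the glucose transporter of the barrier. In the C series its level was 2.91 at the lowest, 3.12 at the median and 3.70 at the highest, with the highest value in C1. In the Co series it was 2.84, 3.21 and 3.65, with the highest value in Co1. The fractions of pairs c1 to c4 exceeded those of c5 to c11 on average by 0.53 in C (1.45-fold) and by 0.26 in Co (1.19-fold). Tek, Kdr, Pecam1, Abcb1a, Flt1 and Cldn5 were higher there too, by 0.19 (Cldn5) to 0.42 (Tek) in C and by 0.23 (Kdr) to 0.47 (Abcb1a) in Co, whereas Slco1c1 differed by −0.30 and −0.023. These differences leave out pairs c12 and c13 and are a description. How many of all probes were higher in c1 to c4 was not counted. Along the whole coronal axis 26.0% of all probes fell toward the anterior end. The levels of the 9 astrocyte markers, summed on the linear scale, were 162.1 to 192.4 in these 8 fractions and 66.0 to 115.4 in the 14 of c5 to c11. The sums of the 51 other endothelial genes (107.9 to 116.0 against 88.9 to 104.7), the 32 VEGF, angiopoietin and Wnt partners (59.3 to 65.7 against 47.9 to 57.6) and the 3 fenestrated endothelium markers (1.40 to 2.31 against 0.82 to 1.25) were also higher without overlap, and that of the 10 genes of glucose and thyroid hormone handling was lower (22.3 to 32.3 against 35.1 to 48.5). With overlapping ranges, the medians were higher in c1 to c4 for oligodendrocyte (313.1 against 222.8), meningeal (31.5 against 16.0), pericyte (25.8 against 21.4), blood cell (5.61 against 2.38) and choroid plexus markers (10.2 against 3.33), and lower for microglia (7.24 against 12.9), smooth muscle (10.7 against 12.9) and neuron markers (157.9 against 161.7). The part of these cells in the difference was not tested. In C the step fell between C4 (3.67) and C5 (3.22), which is also the border between 2 slides, and in Co the levels overlapped, with 3.27 in Co3 and 3.26 in Co4 below the 3.39 of Co6, and 3.45 in Co5, the first array of the next slide. In S the lowest, median and highest values were 3.28, 3.55 and 3.80, in So 3.19, 3.38 and 3.53, in H 2.94, 3.05 and 3.29, and in Ho 3.10, 3.38 and 3.57.

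Slco1c1 encodes the thyroxine transporter OATP1C1. Its level in C was 0.65 at the lowest, 1.18 at the median and 1.39 at the highest, and in Co 0.62, 0.95 and 1.37. The lowest values came from neighboring positions in both brains, C2 with 0.65 and Co2 and Co3 with 0.64 and 0.62. In S the values were 1.01, 1.20 and 1.30, in So 0.74, 0.93 and 1.48, in H 0.89, 1.08 and 1.37, and in Ho 0.82, 1.02 and 1.55. The dorsal fractions H1 and Ho1 and the left outermost So1 were the highest of their series.

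Flt1 and Kdr encode the VEGF receptors VEGFR1 and VEGFR2. The level of Flt1 was 3.39 at the lowest, 3.49 at the median and 3.64 at the highest in S, and 2.99, 3.09 and 3.22 in So, so that the S and So fractions did not overlap. In C it was 2.90, 3.08 and 3.54, in Co 2.73, 3.02 and 3.22, in H 2.97, 3.02 and 3.38, and in Ho 3.05, 3.13 and 3.30. The level of Kdr was −0.96, −0.78 and 0.12 in C and −0.76, −0.43 and 0.16 in Co. As with Cldn5, the highest coronal values of Kdr were at the anterior end (C13 with 0.12, Co15 with 0.03 and Co16 with 0.16), and the other coronal fractions lay between −0.96 and −0.33. Pair c13 (0.07 ± 0.06, SD, n = 2) stood 0.39 above the next pair, h6, against a standard error of 0.20 for that difference. The fractions of h6 were apart, at −0.04 in H6 and −0.59 in Ho7, and H1 (0.03) was as high as Co15. This gap was picked from a sorted order, and Kdr did not vary over the pairs in the test given below. In S, Kdr was −0.63, −0.46 and −0.19, in So −0.63, −0.52 and −0.33, in H −0.48, −0.37 and 0.03, and in Ho −0.77, −0.70 and −0.48.

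Tek encodes TIE2, the angiopoietin receptor, and Pecam1 an adhesion molecule at endothelial cell contacts. The level of Tek was −1.88 at the lowest, −1.60 at the median and −1.17 at the highest in C, and −2.23, −1.92 and −1.48 in Co. In S it was −1.83, −1.66 and −1.52, in So −2.14, −1.98 and −1.80, in H −2.29, −2.23 and −2.03, and in Ho −2.19, −2.11 and −1.86. The highest Tek levels were those of C1 to C5, and the paired Co fractions lay below their C partners in 12 of 13 pairs. Pecam1 was −2.80, −2.27 and −1.90 in C and −2.89, −2.59 and −2.24 in Co. C13 held the lowest Pecam1 level of its brain (−2.80) and its partner Co15 the highest of the other brain (−2.24), so the partners disagree there. Pecam1 was −2.78, −2.62 and −2.40 in S, −2.79, −2.67 and −2.42 in So, −2.97, −2.80 and −2.57 in H, and −2.70, −2.58 and −2.40 in Ho.

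Of the 8 members, 3 varied over the 28 pairs beyond the difference between paired fractions, namely Cldn5 (F = 6.22, adjusted p = 1.09e-05), Abcb1a (F = 3.37, adjusted p = 0.00213) and Slc2a1 (F = 3.14, adjusted p = 0.0035), by limma's moderated F statistic and Benjamini-Hochberg adjustment over all detected probes. The 27 contrasts of this test also compare pairs of different planes, which come from different mice. The F statistic thus mixes position with mouse, slide and scan day, also when the mouse is added as a block. The background is high, as 61.3% of the 36573 probes were called (22417), and the median F was 1.54 over the members and 2.58 over all probes. Kdr (F = 1.65, adjusted p = 0.131), Tek (1.43, 0.224), Flt1 (1.32, 0.289), Pecam1 (1.03, 0.536) and Slco1c1 (0.79, 0.792) did not pass. The other probe of Flt1 did (F = 2.67, adjusted p = 0.0104), and with the slide as a random block Slco1c1 did (F = 2.34, adjusted p = 0.0234), where 61.7% of all probes were called. When the mouse was added as a block, all 8 members passed, with F between 2.32 (Pecam1) and 7.13 (Flt1), and so did 86.0% of all probes. Without pair c13, Cldn5 had F = 2.22 (adjusted p = 0.0353). With the slide as a fixed term, which leaves 17 of 27 contrasts, Cldn5 (adjusted p = 0.658) and Slc2a1 (0.386) no longer passed, whereas Abcb1a did (adjusted p = 0.00262), and with it Slco1c1 and Tek, against 43.2% of all probes in that fit.

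Along the posterior to anterior axis, 1 member rose and 2 fell, whereas 19.9% of all probes rose and 26.0% fell. The split depends on the scaling. Under median scaling (each array to its own median) 2 members rose, Cldn5 (0.048) and Slco1c1 (0.037, adjusted p = 0.00339), and 1 fell, Slc2a1 (−0.037), against 26.8% and 18.6% of all probes. The authors' table gave the same 3 calls. Under normexp and quantile normalization Slco1c1 rose (0.023, adjusted p = 0.0491), Flt1 (−0.031, 0.018) and Slc2a1 (−0.059) fell, and Cldn5 (0.0553) and Tek (0.0524) did not pass. Slc2a1 passed under these 3 scalings as in the main one. In the main scaling Slc2a1 fell by 0.050 per fraction (SE 0.0085, adjusted p = 1.12e-05), with slopes of −0.063 in C and −0.038 in Co. Tek fell by 0.034 per fraction (SE 0.014, adjusted p = 0.0452), with −0.052 in C and −0.016 in Co. Cldn5 rose by 0.034 per fraction (SE 0.010, adjusted p = 0.00618), with 0.033 in C and 0.036 in Co, but this slope rests on pair c13, without which it was −0.012 (adjusted p = 0.421). With fractions paired by their own number the Cldn5 slope was 0.0036 (adjusted p = 0.839), and with the slide as a random block it was 0.031 with a larger error (SE 0.018, adjusted p = 0.199). Without pair c13 Flt1 (−0.038), Kdr (−0.037) and Abcb1a (−0.037) passed the test beside Slc2a1 and Tek, all of them falling, so that 5 members fell and 0 rose, against 27.6% and 20.0% of all probes in that fit.

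The call for Tek was lost without any one of 12 arrays (C1 to C6, C13, Co9 to Co12 and Co14), with slopes from −0.044 to −0.024 over all single omissions, and under median scaling (−0.020, adjusted p = 0.217). With the mouse as a block, 6 members passed, against 57.9% of all probes: Slc2a1, Tek, Flt1 and Pecam1 fell, and Cldn5 and Slco1c1 rose (adjusted p between 7.76e-08 and 0.00624). With the slide as a fixed term no member passed, and Slc2a1 had a slope of −0.045 (adjusted p = 0.352). Neighboring fractions share slides, so position and slide are partly confounded in the coronal brains.

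No member passed in the other 3 directions at an adjusted p of 0.05. From dorsal to ventral, where 9.01% of all probes rose and 6.13% fell, the steepest member was Cldn5 with 0.054 per fraction (SE 0.033, adjusted p = 0.334). From the midline outward, where 10.3% rose and 12.0% fell, the steepest were Slc2a1 with −0.066 (SE 0.029, adjusted p = 0.11) and Slco1c1 with 0.065 (SE 0.037, adjusted p = 0.244). With the mouse as a block these 2 passed, with adjusted p of 0.0155 and 0.00978, where 17.0% of all probes rose and 19.3% fell. The steepest member changed with the scaling: under median scaling Slc2a1 had −0.025 (adjusted p = 0.532), and Slco1c1 (0.106, 0.0239) and Cldn5 (0.095, 0.0484) passed, against 18.6% of all probes rising and 8.02% falling. Under normexp and quantile normalization Slc2a1 passed (−0.099, adjusted p = 0.0195). From left to right, where 0.509% of all probes were called, slopes lay between −0.021 (Cldn5) and 0.017 (Abcb1a). At an unadjusted p of 0.05, Slc2a1 alone passed in any of these 3 directions, in that from the midline outward (0.0305).

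**Figure D2:**
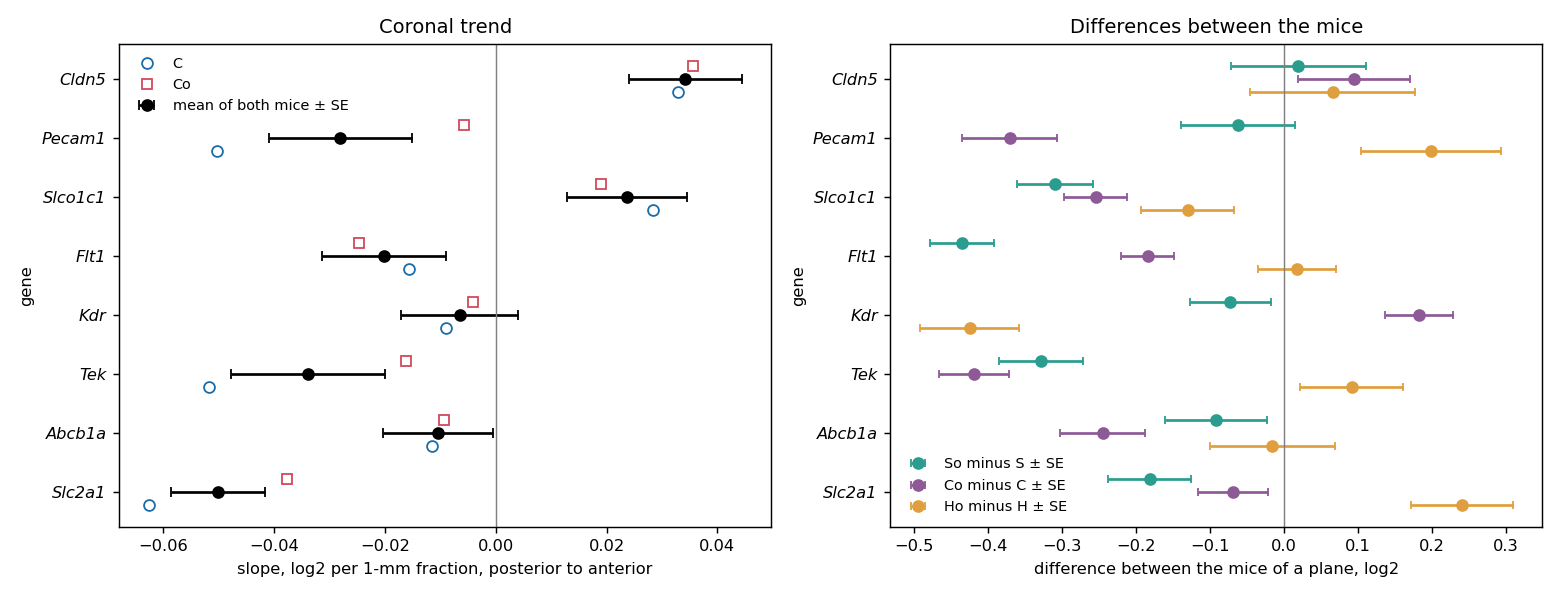
The left panel shows the slope of each member from posterior to anterior (log2 per 1-mm fraction), with the mean of both brains and its standard error as filled points and the C and Co brains as open symbols. The right panel shows the difference between the 2 mice of each plane (log2, oblique minus orthogonal series) with its standard error; Slc2a1 has the steepest slope, and Kdr lies above 0 in the coronal and below 0 in the horizontal plane.

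Brains of the same plane differed for 7 of 8 members (limma's moderated F test of 3 contrasts), as they did for 63.1% of all probes. Cldn5 was the exception (F = 0.66, adjusted p = 0.632), and it lay higher in the oblique brain in 10 of 13 coronal, 4 of 6 horizontal and 3 of 9 sagittal pairs. Each plane has 1 mouse per cutting angle, so the mouse and the angle cannot be told apart. The p-values and standard errors of these contrasts measure the spread between fractions within the brains, not between mice. Fractions on a slide were correlated (0.54 in the fit with the slide as a random block), so the fractions and the counts of pairs are not independent. In the coronal plane the brains were also scanned on different days and slides, in the sagittal plane 8 of 9 S arrays were scanned on another day than the So arrays, and in the horizontal plane the brains lay on different slides of 1 day. With the scan day as a fixed term 4 members were called, against 10.6% of all probes, and Co minus C could not be fitted.

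The sagittal brains differed most for Flt1, which was lower in So than in S by 0.43 (SE 0.04, adjusted p = 2.63e-08) and in 9 of 9 pairs. Tek (−0.33 ± 0.06, SE), Slco1c1 (−0.31 ± 0.05) and Slc2a1 (−0.18 ± 0.06) were also lower in So, whereas 12.4% of all probes were higher and 17.5% lower there (18.6% and 10.9% under median scaling). The call for Slc2a1 was lost under all 3 other scalings (−0.11, adjusted p from 0.113 to 0.223) and with the slide as a random block (0.0812). With the scan day as a fixed term, where S1 and So2 alone share a day, none of the 4 passed, and Flt1 had −0.28 (adjusted p = 0.261). In the coronal plane Tek was lower in Co by 0.42 (SE 0.05, adjusted p = 1.86e-08), and Pecam1 (−0.37), Slco1c1 (−0.25), Abcb1a (−0.24) and Flt1 (−0.18) were lower as well. Kdr was higher in Co by 0.18 (SE 0.05, adjusted p = 0.00123) and in 12 of 13 pairs, where 26.1% of all probes were higher and 27.4% lower. The second probe of Flt1 was also lower in So (−0.33) but higher in Co (0.24, adjusted p = 1.05e-06), so the 2 probes of Flt1 disagree on the direction in the coronal plane.

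The horizontal brains were scanned on the same day, and 3.92% of all probes were higher and 1.6% lower in Ho. There Kdr was lower in Ho by 0.42 (SE 0.07, adjusted p = 0.000214) and in 6 of 6 pairs, and Slc2a1 was higher by 0.24 (SE 0.07, adjusted p = 0.036) in 5 of 6. The call for Slc2a1 was lost without any one of 10 arrays (H2 to H6 and Ho3 to Ho7; 0.20 to 0.33 over all single omissions) and under all 3 other scalings (0.22 to 0.26, adjusted p from 0.0513 to 0.0852). With the slide as a random block its adjusted p was 0.349. Kdr thus lay higher in the oblique brain of one plane and lower in that of another; the difference between these contrasts was not tested. The H arrays lay on other slides than the Ho arrays, so mouse and slide cannot be told apart there. With the slide as a random block Kdr differed by −0.42 (adjusted p = 0.016).

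Several members reached their highest level in the outermost fraction of a brain. All 8 were highest in So1 among the 10 So fractions, where 21.3% of all detected probes were highest too. Ho1 held the highest level of 7 members (30.0% of probes), H1 that of 6 (24.0%), Co16 that of 5 (12.1%) and S1 that of 3 (24.9%). At the opposite sides and in the other coronal end fractions, 1 member each was highest in S9 (15.9% of probes), H6 (17.3%), Ho7 (14.1%) and Co1 (16.7%), 2 in C1 (14.1%), 3 in C13 (20.7%) and 0 in So10. Under median scaling these counts were 7 in So1, 8 in Ho1, 6 in H1, 4 in Co16 and 5 in S1. The subtracted 75th percentile signal was the lowest of its series in So1 (939.7), Ho1 (739.7) and C13 (923.6). In Co16 (1444) it was low too, with Co1 alone lower (1351). It was within the range of the series in H1 (1098) and the highest of its series in S1 (1091). The part of this signal in the counts was not tested. So1, Ho1 and Co16 have no partner, and their values entered no comparison of pairs or mice.

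Markers of other cells were read in So1, Ho1, H1 and S1, as levels summed over the detected genes of a list on the linear scale (1 is the 75th percentile). The 51 other endothelial genes lay above the rest of the series in So1 (132.0 against 92.6 to 108.4), Ho1 (132.0 against 96.6 to 110.0) and H1 (115.8 against 88.8 to 103.3), and within it in S1 (108.2, range 100.1 to 108.6). The 7 microglia markers lay above it in So1 (21.2 against 9.79 to 17.0), Ho1 (28.5 against 12.5 to 21.3) and S1 (15.7 against 10.4 to 14.2), and within it in H1 (16.2, range 11.4 to 19.9). The 6 oligodendrocyte markers lay below it in all 4 fractions, at 65.5 to 96.2 where the other fractions had 139.8 or more. The 3 markers of fenestrated endothelium lay above the rest of the series in H1 (1.53 against 0.99 to 1.22) and below it in Ho1 (0.95 against 1.11 to 1.37) and S1 (0.85 against 1.22 to 1.63), and the 8 choroid plexus markers lay below it in H1 (0.85 against 2.51 to 16.4) and S1 (0.54 against 5.06 to 16.5). The 10 genes of glucose and thyroid hormone handling summed above the rest of the series in all 4, and the 32 VEGF, angiopoietin and Wnt partners lay within it in all 4.

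In So1 alone of these fractions, the 5 smooth muscle markers (16.2 against 10.2 to 12.7) and the 10 pericyte markers (23.4 against 18.2 to 22.3) lay above the rest of the series, and in Ho1 alone the 8 neuron markers did (193.3 against 148.9 to 187.2). The sums of 8 meningeal fibroblast, 5 blood cell and 9 astrocyte markers lay within the range of the series in all 4. The part of these cells in the member levels was not tested.

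At the anterior end (C13, Co15 and Co16), where Cldn5 and Kdr were highest, the 10 pericyte markers summed to between 41.7 and 63.2, against 16.1 to 34.8 in the other 26 coronal fractions. The 51 other endothelial genes summed to 125.2 to 161.9 against 88.9 to 129.5. The 8 meningeal markers summed to 40.2 to 99.4 against 11.1 to 54.5, the 7 microglia markers to 17.8 to 20.8 against 5.91 to 19.0, and the 6 oligodendrocyte markers to 100.4 to 111.9 against 121.9 to 430.4. These sums are weighted by the brightest probes, and the sums of pericyte markers lay above, and those of oligodendrocyte markers below, their range in the rest of the axis. With overlapping ranges, medians were higher at this end for blood cell (8.62 against 3.99) and astrocyte markers (128.2 against 84.8). So were those of choroid plexus (5.13 against 3.33) and fenestrated endothelium markers (1.48 against 1.14) and of the VEGF, angiopoietin and Wnt partners (63.6 against 54.4). Medians were lower for glucose and thyroid hormone genes (34.8 against 37.3), smooth muscle (11.7 against 11.9) and neuron markers (146.6 against 159.5). Along the whole axis the pericyte markers were mixed, as Anpep alone rose and Notch3, Atp13a5, Kcnj8 and Abcc9 fell. The part of these cells in the Cldn5 and Kdr levels was not tested. All markers of the pericyte, meningeal, microglia and oligodendrocyte lists were well above background in all 61 fractions.

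**Figure D3:**
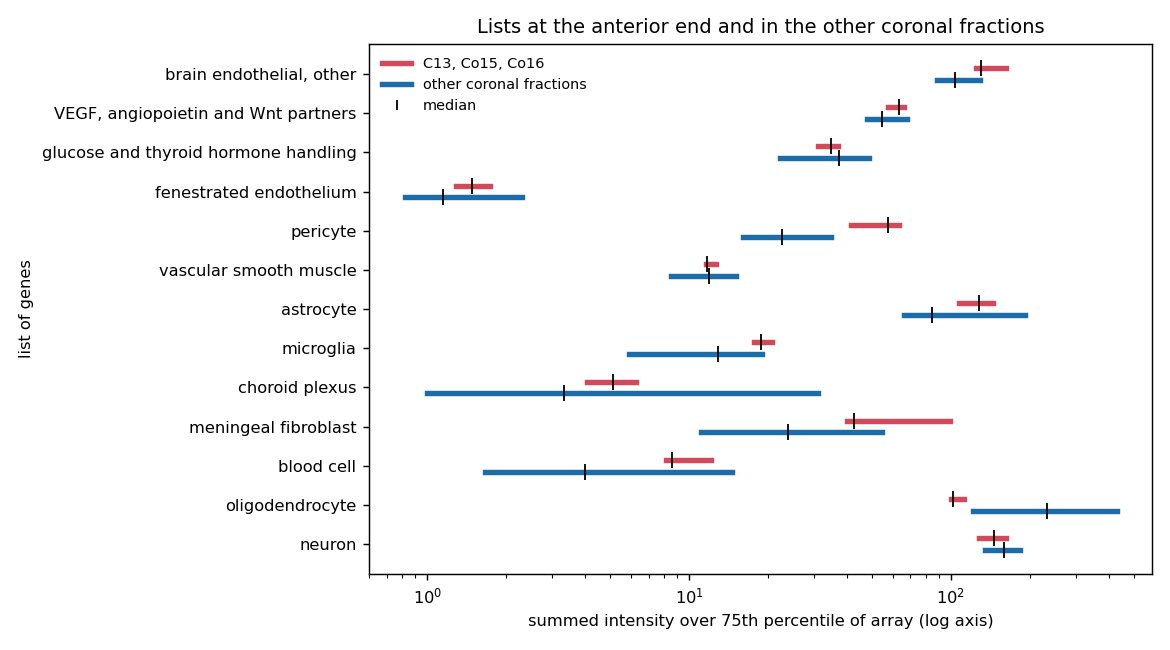
Range (bar) and median (tick) of the summed intensity of each list of genes, relative to the 75th percentile of the array and on a log axis, in the 3 fractions of the anterior end and in the other 26 coronal fractions. Pericyte markers sum to 41.7 to 63.2 at the anterior end and to 16.1 to 34.8 elsewhere, and oligodendrocyte markers to 100.4 to 111.9 and 121.9 to 430.4.

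**Figure D4:**
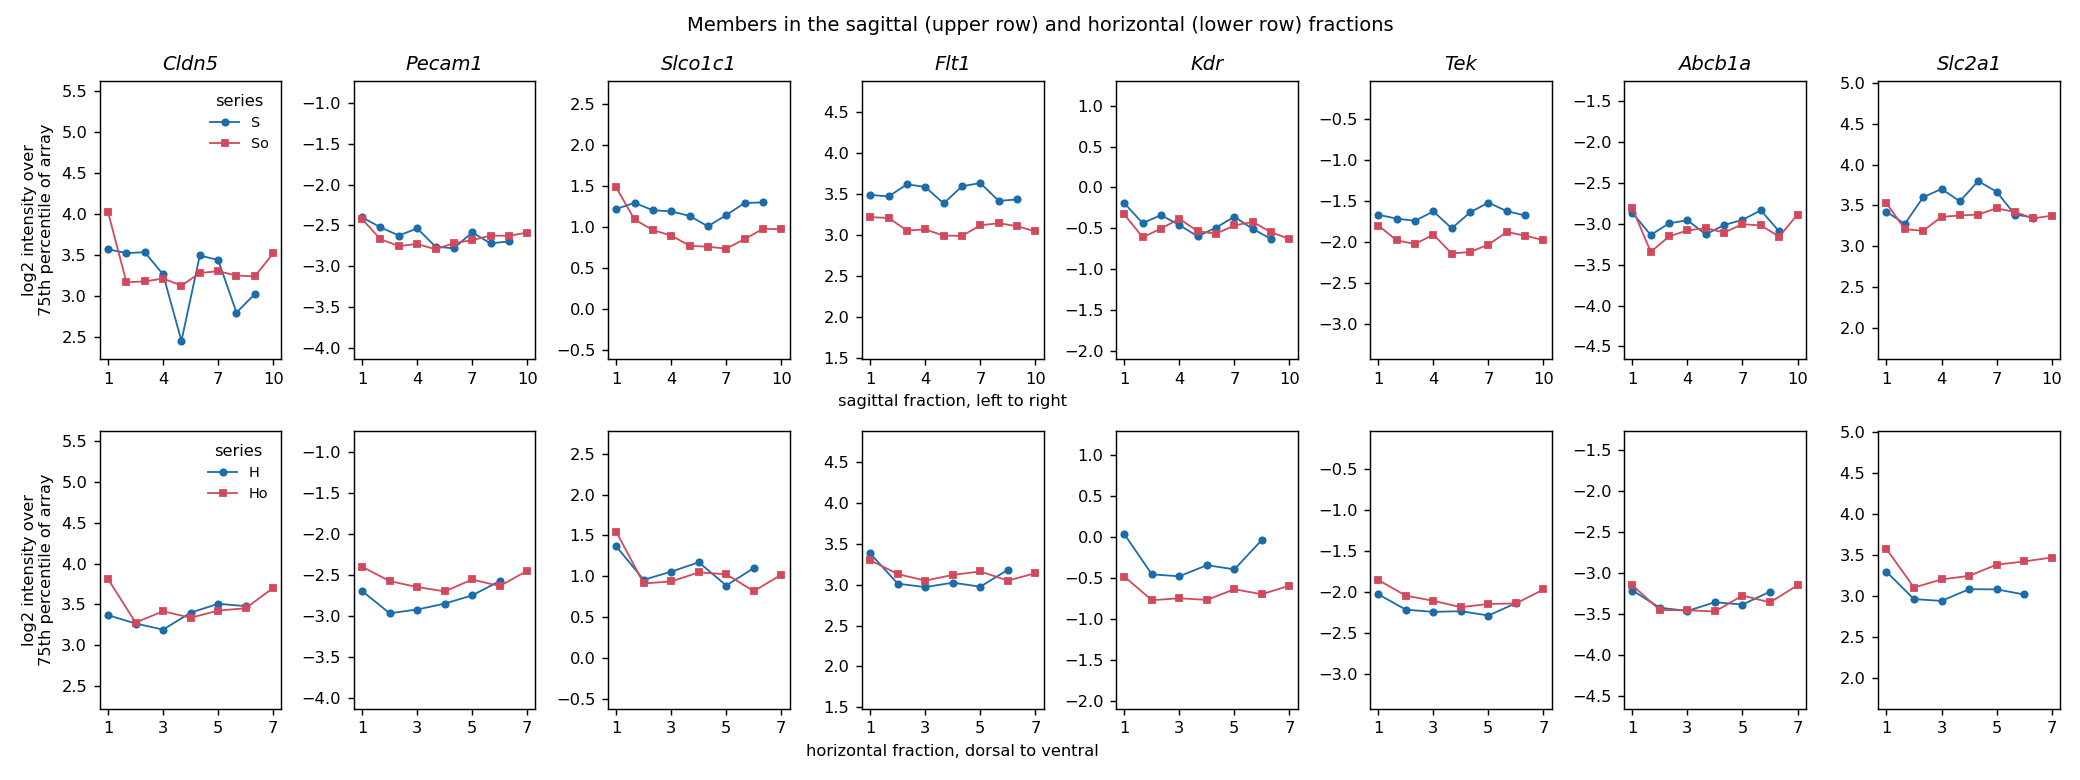
Log2 intensity relative to the 75th percentile of each array in every sagittal (upper row, left to right) and horizontal fraction (lower row, dorsal to ventral), numbered within each brain, with 1 point per fraction and the same height in log2 units in every panel. So1 is the highest So fraction for all 8 members, and Kdr in H lies above Kdr in Ho in all 6 pairs.

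Across the 61 fractions, after the mean of each mouse was subtracted, the members moved together to different degrees. The correlation r was above 0.5 in 15 of 28 pairs of members and below 0 in 1, with a median of 0.51. These values depend on the centring. Without it 9 pairs were above 0.5 and the median was 0.31, and with the mean of each slide subtracted 20 were and it was 0.57. As a background, the median r of a member with all 17090 other genes lay between 0.0014 and 0.067, and the 95th percentile between 0.46 and 0.67. These values describe fractions that share brains and slides and carry no p.

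The VEGF receptors Flt1 and Kdr had an r of 0.83 with each other, as did Tek and Pecam1. Without centring the r of Flt1 with Kdr was 0.44, whereas that of Tek with Pecam1 was 0.82. Cldn5 followed Kdr (0.78) and Abcb1a (0.70) most closely. Without C13, Co15 and Co16 the r of Cldn5 with Kdr was 0.52 and with Abcb1a 0.56, whereas that of Flt1 with Kdr stayed at 0.83. Slco1c1 stood apart, with r between −0.05 (Slc2a1) and 0.30 (Cldn5) and a median of 0.15 with the other members. After subtraction of the mean of each slide, Slco1c1 had r between 0.22 and 0.35 with the other members, and over the 28 pair means it had r between −0.49 and −0.03.

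**Figure D5:**
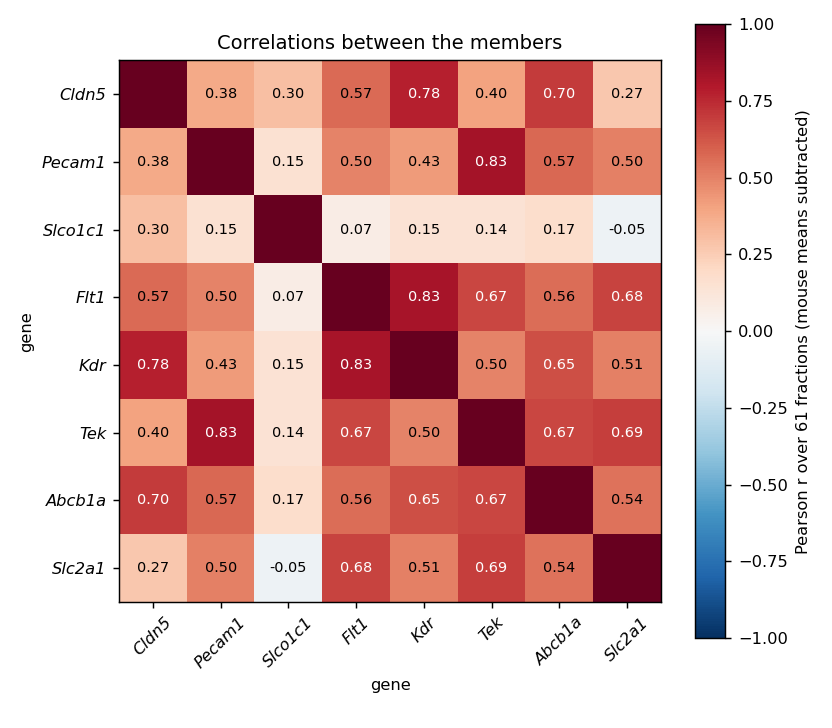
Pearson correlation between the members over 61 fractions after the mean of each mouse was subtracted; each cell gives r for 2 genes. Flt1 with Kdr and Pecam1 with Tek have the highest r (0.83), and the row of Slco1c1 stays between −0.05 and 0.30.

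The genes with profiles most like the mean of the 8 members included several further endothelial genes. Among 11529 named genes measured in all fractions, Nostrin, an endothelial regulator of nitric oxide synthase, came first (r = 0.92), followed by the anion transporter Slco1a4 (0.92), the adhesion molecule Icam2 (0.92), Ly6a (0.90), Ly6c1 (0.89), Wfdc1 (0.89), Thsd1 (0.88), Cdh5, the endothelial cadherin (0.88), the metal transporter Slc39a8 (0.87) and Nes, an intermediate filament gene (0.87). The median r over all genes was 0.018 and the 95th percentile 0.66. Of these 10 genes, 5 belong to the list of other endothelial genes, of which 49 were measured in all fractions. That list was chosen with earlier results of these data known.

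Each member had its own nearest profiles. They were Egfl8, Atf5 and Uba7 for Cldn5 (r from 0.87), Iqgap1, Cd93 and Ppara for Kdr (from 0.92), and Unc45b, Mmrn2 and Robo4 for Flt1 (from 0.87). For Pecam1 they were Tek, Xdh and Podxl (from 0.83), and for Tek they were Pecam1, Sat1 and Slc16a11. For Abcb1a they were Hadh, Slc39a8 and H2-T22 (from 0.88), for Slc2a1 Taf13, Ostf1 and Plcd4 (from 0.87), and for Slco1c1 Apoo, Ezr and Tmem218 (from 0.72), the lowest first value among the members.

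Of the other brain endothelial genes, 35 of 51 detected varied over the pairs (median F 2.53, against 2.58 over all probes), and 7 rose and 15 fell from posterior to anterior. Over all probes 61.3% varied, 19.9% rose and 26.0% fell, and the counts of the lists that follow stand beside the same shares. Car4, a carbonic anhydrase (F = 14.9), fell by 0.15 per fraction, and Jam2, a junctional adhesion molecule (F = 14.6), fell by 0.055. Ly6c1 (F = 2.04) and Slc7a5, an amino acid transporter (F = 2.06), had the lowest F among the called genes.

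Of the 32 VEGF, angiopoietin and Wnt partners, 18 varied (61.3% of all probes did), and 5 rose and 10 fell along the coronal axis (19.9% and 26.0% of all probes). Pgf, a ligand of VEGFR1, fell by 0.079 per fraction (F = 13.3), and the Wnt ligand Wnt7a, which acts on brain endothelium, fell by 0.083 (F = 17.8). Adgra2 (F = 2.06) and Fzd4 (F = 2.05), which receive Wnt signals in endothelium, had the lowest F among the called genes. Vegfa, the ligand of both receptors, named here after its values were seen, did not pass (F = 0.76, adjusted p = 0.816).

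All 10 genes of glucose and thyroid hormone handling varied (61.3% of all probes did), and 6 rose and 3 fell (19.9% and 26.0%). Dio3, which inactivates thyroid hormone (F = 19.5), rose by 0.29 per fraction, and the receptor Thrb (F = 17.7) rose by 0.049. Hk1, a hexokinase (F = 2.84), and the receptor Thra (F = 2.64) had the lowest F of the list. The mean profile of this list had an r of −0.44 with that of the members.

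Against the 61.3% of all probes that varied, 6 of the 10 pericyte markers did (Notch3 with F = 8.92, Anpep with 4.48, Higd1b with 3.69 and Abcc9 with 3.16 among them), and the r of their mean profile with that of the members was 0.85, next to 0.94 for the other endothelial genes. For blood cell markers it was 0.75 (4 of 5 varied, Hba-a1 with F = 3.97), for meningeal fibroblast markers 0.72 (8 of 8, Dcn with F = 7.87), and for astrocyte markers 0.64 (6 of 9, Aqp4 with F = 22.3). It was 0.40 for fenestrated endothelium (2 of 3, Esm1 with F = 9.55 and Plvap with 4.84), 0.096 for microglia (6 of 7, Tmem119 with F = 19.9), and 0.046 for smooth muscle (3 of 5, Mylk with F = 5.12). It was below 0 for choroid plexus (−0.20, 8 of 8 varied), oligodendrocytes (−0.22, 6 of 6) and neurons (−0.57, 7 of 8). The lists share fractions and arrays with the members, and these values are a description.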

How the data were processed

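Per the file headers, the authors' spot intensities came from Agilent Feature Extraction 9.1.3.1 with background subtraction and no normalization between arrays. The deposited flags score each spot as 0 or 1. The authors also deposited a table of intensities normalized per array on the linear scale, which was used as an alternative. The file headers name another array design number than the methods do. The labels number the S fractions from 2, and they were renumbered from 1 as in the study.

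Here, spots of a probe were averaged as log2 intensity, and each array's 75th percentile was subtracted. Tests covered a probe if well above background on at least 1 array (36573 of 41174). Names came from RefSeq accessions (22951 probes matched). limma 3.58.1 in R 4.3.3 (lmFit, eBayes) was fitted over the 56 paired arrays, with 28 residual and 1.88 prior degrees of freedom, in place of the one-way ANOVA of the methods, and p-values were Benjamini-Hochberg adjusted over all detected probes. Trends were linear contrasts of the pair means, and mice were compared with the pair in the model. Paired fractions, taken as replicates after the study's replicate table, come from different mice at similar positions, so p-values of variation and trends measure that spread. Those of the mouse differences measure the spread between fractions within the brains, with 1 mouse on each side. Fractions of a mouse deviate together from their pair means (median r 0.28 over 258 combinations, 230 of them above 0.1), and mouse identity comes from the labels, so fits with the mouse as a block are given beside the main values. The number of mice and arrays limits the precision.

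On simulated data for 36573 probes, the variation test recovered 39% of changed probes at an SD over the pairs of 0.3 and 77% at 0.6 (9 false calls), the coronal trend 37% and 65% at 0.05 and 0.1 per fraction (7 false), and the coronal mouse difference 28% and 62% at 0.3 and 0.6 (5 false). The simulated noise was independent between arrays, without the mouse and slide effects of the data. The false calls therefore do not show the error rate on these data.

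The members and all gene lists were chosen with earlier results of these data known. The genes named are the members, the 10 named genes with the highest r with their mean (2 unnamed transcripts that ranked among the first 10 were left out), 3 per member, and from each list up to 2 called genes with the largest and 2 with the smallest F. Correlations and figures used Python 3.11.15, numpy 2.4.6, pandas 2.3.3 and matplotlib 3.10.9. Alternatives were other scalings, background correction and quantile normalization, the authors' table, probe filters, blocks for slide, scan day and mouse, other pairings, single planes, a stricter threshold, and leaving out each array. The fits without pair c13, the correlations after subtraction of slide means and those without 3 fractions were added after the data were seen.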

Additional observations from a re-analysis of the deposited data

Results flagged for a closer look

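In the So series, So1 held a Cldn5 level of 4.02, and the next highest of the 10 fractions had 3.52, a gap that is 0.56 of the range of the series. In the same fraction Slco1c1 was 1.48, against 1.09 in the next highest. In the Ho series, Slco1c1 was 1.55 in Ho1, against 1.05 in the next highest of 7 fractions, a gap of 0.68 of the range. These are lone high fractions by Dixon's gap test, which chance passes in about 1 of 20 groups. It was applied to the 8 members in S, So, H and Ho (32 groups), where 3 values stood apart, and not to C and Co, which have over 10 fractions each. So1 and Ho1 are the outermost fractions on the left and at the top, have no partner in the other brain and entered no comparison of pairs or mice.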

How the results depend on the processing

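The number of members varying over the pairs was 3. It was 7 with the scan day as a fixed term (64.5% of all probes), 8 with the mouse as a block (86.0%), and 0 for the horizontal or the sagittal pairs alone, which leaves fewer arrays. Leaving out each array gave 3 or 4 (4 without H1 or Ho2, where Kdr also passed). The number with a posterior to anterior trend was 3. It was 0 with the slide as a fixed term (3.92% of all probes higher and 3.78% lower), 5 with the scan day (24.4% and 33.2%), 6 with the mouse as a block (24.9% and 33.0%), 5 without pair c13 (20.0% and 27.6%), and 2 to 4 on leaving out each array. The slope of Cldn5 turned to −0.0039 without the first and the last pair of the plane and to −0.012 without pair c13, the Co minus C difference of Flt1 turned to 0.24 with its other probe, and the cause was not tested. The number with a midline to lateral trend was 0. It was 2 under median scaling and with the authors' table (Cldn5 and Slco1c1), with the scan day (Slco1c1 and Tek, 17.7% of all probes higher and 18.8% lower) and with the mouse as a block (Slco1c1 and Slc2a1), 1 under normexp and quantile normalization (Slc2a1), and 0 to 1 on leaving out each array (1 without So6, for Cldn5). The number differing between the mice was 7, 6 with the slide as a random block (44.8% of all probes), where Abcb1a was lost (adjusted p = 0.0770), and 4 with the scan day as a fixed term (10.6% of all probes), where Co minus C could not be fitted. It was 7 on leaving out each array. Over all probes, 2818 had the coronal trend with the slide as a fixed term (16788 without), 3864 differed between the mice with the scan day (23079 without), and 13772, 4600 and 2410 varied over the coronal, horizontal and sagittal pairs alone and 14773 among probes detected on all arrays (22417 in all). The dorsal to ventral count of 5536 ranged from 1750 (slide fixed) to 11124 (scan day), with 10400 under the mouse block, the midline to lateral count of 8168 from 3040 (first and last pair left out) to 13335 (scan day), with 13261 under the mouse block, and the left to right count of 186 from 2 (slide random) to 2208 (scan day), with 1906 under the mouse block and 348 to 781 without S3, S9 or So2. No member had a dorsal to ventral or left to right trend under any alternative. For single members, 4840 values kept their side of the threshold, 63 lost a call, 55 gained one and 3 called values turned in direction. Changes of sign in values that were not called are not among these 3. The posterior to anterior slope of Kdr, for example, went from −0.0065 to 0.0070 under median scaling. The median correlation between the members (0.51) ranged from 0.31 without centring to 0.57. Fixed terms for slide and day leave fewer contrasts.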
